A study of Mus musculus with 10 samples.

Results

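The 40 splicing factor genes described here are the SR proteins and their TRA2 relatives (12 genes), the hnRNP proteins with Ptbp1 (15 genes), the SF3 and U2AF subunits (8 genes), and the RNA binding proteins Sfpq, Nono, Sugp1, Zranb2 and Rbfox2 (5 genes). They were chosen by name, not by their values, and all 40 were found among the 19371 genes with a measured 3′ end. The unit of measurement is a feature, a UCSC 3′UTR extended by 2000 bases downstream. Features with identical coordinates were summed into sites, so that 133 of 43031 features became 61 of 28706 sites, and 3′ ends of a gene that do not touch were kept apart as separate regions. Values are TPM, the share of a feature in its library per base of its length. Since every feature includes the 2000 added bases, and the 3′UTRs of member sites range from 2 to 6610 bases, TPM is diluted to a different degree in each gene, and levels of different genes are set side by side only as values of these features.

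The RNA came from mouse embryonic stem cells (ESC) of strain C57BL/6, grown with leukemia inhibitory factor on feeder fibroblasts or gelatin. WT ESC were compared with DIDO3ΔE16 ESC, in which the floxed DIDO3-specific exon of Dido1 is deleted after crossing to Sox2-Cre mice, and with DIDO3ΔCT+HADIDO3 ESC, whose DIDO3 lacks its C-terminus and which carry HA-tagged DIDO3 as stable transfectants. The study asked which transcripts change in their 3′ part when DIDO3 lacks its C-terminus and return when DIDO3 is put back. No library of DIDO3ΔCT ESC without HADIDO3 was analysed here, so the deletion, the transgene and the derivation of that line cannot be told apart, and the sources used here do not say how many clones each line stands for. Each group had 3 libraries. The labels give WT replicates 2 and 3 the same library number, so they form 1 library here (WT replicate 2-3), and nothing states that libraries came from separate cultures, so p-values measure only the spread between these libraries.

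The libraries held 1.463 to 2.615 Gb of coverage within features. The most distal Dido1 site had 16.1 ± 2.17 TPM (SD, n = 3) in WT, against 0.455 ± 0.129 in DIDO3ΔE16 and 11.5 ± 0.578 in DIDO3ΔCT+HADIDO3. The library codes of WT replicates 1 and 4 share first letters that differ from those shared by WT replicate 2-3 and all mutant libraries. Libraries with the same first letters are treated here as a flow cell family, a reading of the codes that the labels do not state. None of 9 ESC markers was under 1 TPM in every library, and they summed to 4438.9 to 5686.8 TPM in WT, against 6055.9 to 6553.4 in DIDO3ΔE16 and 4845.8 to 6754.4 in DIDO3ΔCT+HADIDO3. Markers of feeder fibroblasts (10 genes, 2 of them under 1 TPM in every library) summed to 61.4 to 66.1 TPM in WT, against 132.5 to 140.8 in DIDO3ΔE16 and 94.2 to 101.9 in DIDO3ΔCT+HADIDO3, and 7 markers of differentiated cells (1 of them at 0 in every library) to 54.1 to 62.6, 25.8 to 31.9 and 23.7 to 26.6 TPM. The part of these differences in the results below was not tested. In bulk RNA, fewer cells of a type and less RNA per cell cannot be told apart.

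Splicing removes introns from pre-mRNA. SR proteins, which carry a domain rich in arginine and serine, bind exonic enhancers and recruit the spliceosome, whereas many hnRNP proteins coat pre-mRNA and oppose exon inclusion. U2AF recognizes the 3′ splice site, and the SF3A and SF3B complexes are parts of the U2 snRNP, which binds the branch point. Many of these genes regulate their own mRNA by alternative exons or retained introns that expose the transcript to nonsense-mediated decay, which is why separate 3′ ends were listed apart.

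The 3′ ends of these genes are of different kinds, and the following sequences show examples from genes described below. Each is the last 30 bases of the GENCODE M21 transcript (GRCm38) whose end matches the listed 3′UTR end to within 2 bases, read 5′ to 3′ on the strand of the gene; capitals mark a poly(A) hexamer, AATAAA or, where it is lacking, ATTAAA. The first 5 are ends of coding transcripts.
Sfpq (chr4:127031207-127031236, + strand): gatAATAAAgtagattggttactgttggga
Srsf3 (chr17:29043344-29043373, + strand): ttattATTAAAagacactgacttaaagttg
Hnrnpa0 (chr13:58125879-58125908, − strand): ggatatcacaAATAAAgaattcaattctta
Sf3b1 (chr1:54985169-54985198, − strand): accagataAATAAAacttatcacatctaaa
Nono, last region (chrX:101448562-101448591, + strand): ccttATTAAAatacatttgaagccttttca
The next 4 are upstream ends, all of transcripts annotated as retained intron.
Nono, upstream region (chrX:101442402-101442431, + strand): agttagcctgggataggtgaaactatctcc
Sf3b3, upstream region (chr8:110824435-110824464, − strand): tcagaagcaaaaagaggggtgagaggaggc
Sugp1, first region (chr8:70058290-70058319, + strand): ggggagatccaaaatcagaaattaatattt
Sugp1, middle region (chr8:70066882-70066911, + strand): taactacataaaaccagccaatacagctcc
The last 2 do not follow that division, an upstream end of a coding transcript and the last end of a coding transcript.
Hnrnpk, upstream region (chr13:58397037-58397066, − strand): ggcaaaaAATAAAatgcatgtgtaaaattc
Sf3a1, last region (chr11:4182512-4182541, + strand): atgtattatgtataaattactttggtcata
None of the 4 retained-intron ends printed holds either hexamer in its last 40 bases, nor do the coding ends of Sf3a1 and Srsf9, whereas the upstream coding end of Hnrnpk holds AATAAA. Of the 38 member sites that match a GENCODE transcript end, 22 hold AATAAA there, 5 hold ATTAAA without it and 11 hold neither, searched on the transcript strand only; over all 18818 matched sites the shares were 55.1%, 13.0% and 32%. The absence of these letters says nothing about how such an end is formed.

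How well a member could be measured depended on how its 3′ end was listed. Of the 61 sites, 20 were listed as 1 feature and shared no base with another site on the same strand. Among member sites reaching 10 TPM in a library, 1 of 18 of this kind differed by over 2-fold between libraries of 1 group (5.56%), against 22 of 38 that were listed as several features or shared bases (57.9%). Over all sites the shares were 4.13% of 6222 and 48.0% of 7171. Hnrnpf, an hnRNP that binds G-rich sequence, was listed as 7 features of identical coordinates and had 358.8, 17.2 and 333.8 TPM in WT replicates 1, 2-3 and 4, but 341.5 to 390.8 TPM in DIDO3ΔE16 and 334.9 to 352.2 in DIDO3ΔCT+HADIDO3. U2af1, which contacts the AG of the 3′ splice site, had 29.8, 1.31 and 0.418 TPM in WT, against 0.567, 30.1 and 33.2 in DIDO3ΔE16 and 26.0 to 28.6 in DIDO3ΔCT+HADIDO3. WT replicate 2-3 was low for both genes, WT replicate 4 and DIDO3ΔE16 replicate 1 for U2af1 alone. Srsf7, an SR protein that also acts in mRNA export, had 294.1, 17 and 12.9 TPM in WT, against 40.9, 15.9 and 256.9 in DIDO3ΔE16 and 24.0, 237.0 and 12.4 in DIDO3ΔCT+HADIDO3. Tra2a, a regulator related to the SR proteins, had 217.2, 6.21 and 201.8 TPM in WT, against 9.21, 15.2 and 212.0 in DIDO3ΔE16 and 142.9, 9.37 and 6.76 in DIDO3ΔCT+HADIDO3. Each group held both high and low libraries of Srsf7 and Tra2a, and neither gene passed the test in any comparison.

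In all, the most abundant site ranged over more than 2-fold within a group in 17 of the 40 genes. Summing all sites of a gene brought 1 of these 17 within 2-fold. That gene was Srsf1, a founding SR protein, whose 2 overlapping sites shared the signal unequally (672.2 and 28.0 TPM in WT replicate 2-3, 94.8 and 676.2 in WT replicate 1). Its sum was 771.0, 700.1 and 634.5 TPM in WT, against 662.1 to 694.0 in DIDO3ΔE16 and 435.0 to 482.7 in DIDO3ΔCT+HADIDO3, and the groups WT and DIDO3ΔCT+HADIDO3 did not overlap. Rbfox2, a splicing regulator that binds GCAUG, had 3 overlapping sites, 1 of which ranged from 0.005 to 180.1 TPM within WT; its sum was 199.9 to 237.7 TPM in WT but 29.5 in DIDO3ΔCT+HADIDO3 replicate 2. Processed pseudogenes exist for several hnRNP genes, so their levels are uncertain for that reason as well. Srsf4, an SR protein, had 161.7 to 189.8 TPM in WT but 18.4 in DIDO3ΔE16 replicate 1, and Srsf5 as a gene sum had 377.8, 345.2 and 6.25 TPM in WT. Hnrnpa3 had 28.3 TPM in WT replicate 1 and 211.7 to 358.8 in all other libraries, and Hnrnpd, which binds AU-rich elements, had 28 TPM there and 66.3 to 102.3 elsewhere. Hnrnph2 ranged from 5.58 to 77 TPM and Hnrnpr from 3.16 to 26.2 TPM, with high and low libraries in more than 1 group. For Hnrnph1, a relative of Hnrnpf, the gene sum was 594.5 to 709.7 TPM in WT, against 621.5 to 773.6 in DIDO3ΔE16 but 130.3, 445.1 and 162.6 in DIDO3ΔCT+HADIDO3, where 1 of its 2 sites was at 0 in replicate 1. The cause of these differences between libraries was not tested.

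**Figure D1:**
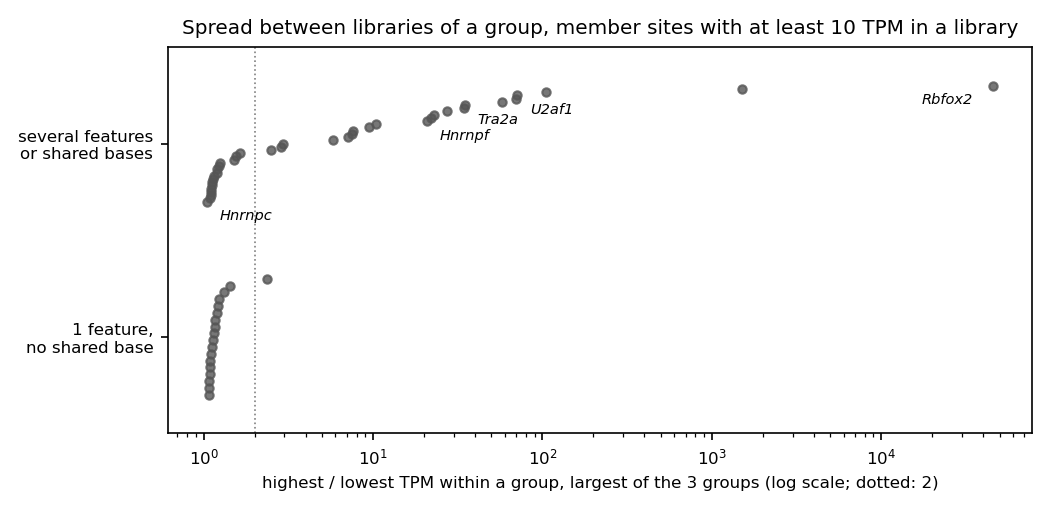
Highest TPM divided by lowest TPM among the 3 libraries of a group, taking the largest of the 3 groups, for each member site that reached 10 TPM in a library (log axis; each point is a site, spread vertically only to separate points). Of the 18 sites listed as 1 feature without shared bases, 1 lies beyond the dotted line at 2; of the 38 others 22 do, with Rbfox2 farthest right, and 1 Hnrnph1 site with a library at 0 is not drawn.

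In the other 23 genes the most abundant site varied by at most 2-fold within each group. In TPM of these extended features, which is not a ranking of mRNA levels, the highest was that of Hnrnpa2b1, an hnRNP A/B protein, with 843.9, 774.8 and 734.6 TPM in WT. Next came Nono (573.9 ± 31.4 TPM in WT), Srsf11 (563.9 ± 30.6) and Srsf3 (538.8 ± 26.9), which lie within each other's spread, then Hnrnpa1 (494.2 ± 25.1), Sfpq (415.8 ± 39.7), Hnrnpu (389.2 ± 47.9) and Hnrnpc (380.6 ± 10.6). U2af2, the large U2AF subunit, had the single site of highest TPM among the SF3 and U2AF genes, with 230.4, 257.5 and 255.2 TPM in WT, against 231.3 to 254.1 in DIDO3ΔE16 and 227.8 to 231.6 in DIDO3ΔCT+HADIDO3. The branch point factors Sf3b2 (217.3 ± 3.57 TPM in WT) and Sf3b3 (214.4 ± 2.72) followed. Sf3b3 summed over its 2 separate regions to 384.5 ± 8.85 TPM. The upstream one holds 300 coding bases, so an mRNA can be counted at both and the sum is not comparable with U2af2. Sf3a3 had 33.1 ± 2.49 and Sf3a2 20.7 ± 3.76.

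Several low levels came from sites that share bases with a gene on the opposite strand, as 15 of the 61 member sites do. The RNA-seq was stranded, but the recorded StringTie command sets no strand, and without it reads of the 2 genes cannot be told apart. Ptbp1, a repressor of neuronal exons, had only 4.43 ± 0.325 TPM in WT, while the site of Plppr3 on the other strand, with which it shares 1578 bases, had 725.2 ± 96.2 TPM in WT, against 495.0 ± 406 in DIDO3ΔE16 and 617.1 ± 43.9 in DIDO3ΔCT+HADIDO3. Srsf2, an SR protein, had 37.4 ± 10.3 TPM in WT beside an overlapping Mettl23 site with 969.1 ± 41.6 TPM. Srsf9 had 14.6 ± 3.1 TPM beside Gatc with 216.9 ± 2.54 TPM. Values of these members are therefore uncertain.

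In DIDO3ΔE16, few member sites passed the test against WT. Libraries were scaled, and log2(TPM + 0.1) was tested with limma, adjusted by Benjamini-Hochberg over all sites above 0 TPM in every library of the comparison; folds are on that scale, and "called" means a log2 fold change of 0.7 or more in either direction with an adjusted p under 0.05. Of the 60 member sites tested in DIDO3ΔE16, 2 were called, the middle region of Sugp1 (lower) and the upstream region of Sf3a3 (higher), whereas 15.1% of all 21063 sites were called. At the adjusted p alone, 3 member sites were higher (15.9% of all sites) and 6 lower (17.4% of all sites). The median log2 fold change of member sites was −0.02, beside −0.01 over all sites. No most abundant site of a member was called.

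The 6 lower sites were those of Sfpq, Zranb2, Srsf10, Srsf11, Hnrnpa2b1 and the middle region of Sugp1. Sfpq, a partner of Nono in nuclear paraspeckles, had 460.7, 401.6 and 385.3 TPM in WT, against 346.7, 368.0 and 368.1 in DIDO3ΔE16 and 280.8, 269.7 and 308.8 in DIDO3ΔCT+HADIDO3. The 3 groups did not overlap. The log2 fold change of Sfpq was −0.26 ± 0.06 (SE; limma adjusted p = 0.0286) in DIDO3ΔE16. Zranb2, a zinc finger protein that binds near 5′ splice sites, fell by 0.25 (adjusted p = 0.0479, limma), and Srsf10, a splicing repressor when dephosphorylated, fell by 0.27 on the log2 scale (adjusted p = 0.0292, limma). Hnrnpa2b1 had −0.20 ± 0.05 (adjusted p = 0.0244, limma) and Srsf11 −0.13 ± 0.04 (adjusted p = 0.0456, limma). Of these 6 sites, 1 still passed without WT replicate 2-3, without DIDO3ΔE16 replicate 1 or without DIDO3ΔE16 replicate 2, 2 without DIDO3ΔE16 replicate 3, 3 without WT replicate 1 and 6 without WT replicate 4; without scaling of the libraries 1 did. The middle region of Sugp1 passed in each of these fits. With WT replicate 2-3 as the only WT library 4 of the 6 passed, and 6 member sites in all were lower (8.55% of all sites). With the flow cell family as a covariate 1 of the 6 passed, and 2 member sites in all were lower (8.04% of all sites); without scaling 1 member site was (13.3% of all sites). All 6 kept a negative log2 fold change with WT replicate 2-3 alone and with the covariate. Both of these fits rest on the same WT library. The 6 sites were chosen as lower with that library in the fit, so their sign is little support.

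The 3 higher sites in DIDO3ΔE16 were those of Hnrnpc, the last region of Sugp1 and the upstream region of Sf3a3. Hnrnpc, which binds uridine tracts and keeps U2AF off cryptic sites, had 387.6, 385.8 and 368.4 TPM in WT and 432.6, 433.7 and 433.0 in DIDO3ΔE16. All 3 DIDO3ΔE16 libraries lay above WT, with a log2 change of 0.12 ± 0.02 (adjusted p = 0.0157, limma). The upstream region of Sf3a3, the end of a transcript annotated as processed transcript with no coding base, had 1.47, 1.80 and 2.56 TPM in WT and 3.73, 3.65 and 3.27 in DIDO3ΔE16. Its log2 fold change of 0.81 ± 0.23 (adjusted p = 0.0496, limma) was at the threshold. It was 0.63 without WT replicate 1 (adjusted p = 0.0989, limma), and without each other library but WT replicate 4 the adjusted p was 0.0958 to 0.128.

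Of the well measured members without a call in DIDO3ΔE16, Srsf3, a small SR protein with roles in splicing and 3′ end choice, had 542.0, 528.8 and 551.0 TPM, within the WT range of 507.8 to 555.8. Sf3a1 (log2 fold change −0.03 ± 0.04), Sf3b3 (0.01 ± 0.04), Sf3b2 (−0.06 ± 0.04), Tra2b (−0.07 ± 0.04), Hnrnpa0 (−0.02 ± 0.04) and Nono (0.04 ± 0.04) did not pass the test. Those with unstable sums, such as U2af1 (1.59 ± 2.31) or Hnrnpf (1.43 ± 1.31), could not be judged.

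In DIDO3ΔCT+HADIDO3, more members were lower than in WT, by modest amounts. Of 59 member sites tested, 2 were called, Ptbp1 (higher) and an upstream site of Srsf11 (lower), against 17.3% of all 20879 sites. At the adjusted p alone, 22 member sites were lower (20.0% of all sites) and 2 higher (18.5% of all sites), and the median log2 fold change was −0.24, beside −0.01 over all sites. The 22 sites belong to 15 genes, in each of which the most abundant site was among them. By family, 8 of 18 sites of SR and TRA2 genes were lower (median −0.47), 3 of 19 of hnRNP genes (median −0.04), 6 of 12 of SF3 and U2AF genes (median −0.22) and 5 of 10 of the other genes (median −0.29); the SR, SF3 and other medians stayed below 0 without scaling and under quantile normalization, whereas that of the hnRNP genes was 0.06 under either. Both comparisons share the WT libraries.

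Among the SR and TRA2 genes, the lower sites were those of Srsf3, Srsf10, Srsf11 and Tra2b. Srsf3 had 552.8, 555.8 and 507.8 TPM in WT and 416.9, 414.4 and 434.6 in DIDO3ΔCT+HADIDO3, without overlap (log2 fold change −0.46 ± 0.04, adjusted p = 0.001, limma). Tra2b, which binds GAA-rich enhancers, had 329.0, 315.2 and 296.9 TPM in WT and 221.5, 225.3 and 251.5 in DIDO3ΔCT+HADIDO3 (−0.53 ± 0.05, adjusted p = 0.00143, limma). Both genes were lower in each of the 3 libraries than in any WT library.

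Srsf11, which is rich in arginine and serine, has the SR site of highest mean TPM, at its last region. That site had 592.4, 567.7 and 531.6 TPM in WT, against 522.2 to 546.5 in DIDO3ΔE16 and 436.0, 449.9 and 481.9 in DIDO3ΔCT+HADIDO3 (−0.41 ± 0.04, adjusted p = 0.002, limma). The listed 3′UTR there has 2 bases, so nearly all of the site is added downstream sequence, and it holds 333 coding bases. Srsf11 had 2.46 ± 0.155 TPM in WT at the overlapping site with a 3′UTR of 1516 bases. That low value is uncertain, as the site shares 345 bases with Ankrd13c on the opposite strand. The Ankrd13c site had 112.3 ± 10.6 TPM in WT and was lower in DIDO3ΔCT+HADIDO3 as well (−0.57, adjusted p = 0.00408, limma). All 4 Srsf11 sites, 2 overlapping ones in each region, were lower in DIDO3ΔCT+HADIDO3. Among them was the called upstream site of a retained-intron transcript, with 50.9, 38.2 and 31.3 TPM in WT, against 27.8, 30.3 and 28.1 in DIDO3ΔE16 and 21.2, 21.3 and 29.3 in DIDO3ΔCT+HADIDO3. That site overlaps another of the same gene, varied within WT and had a log2 change of −0.83 ± 0.21 (adjusted p = 0.0297, limma); the adjusted p was 0.0556 without WT replicate 1, 0.0756 without WT replicate 2-3, and 0.0886 and 0.0906 without DIDO3ΔCT+HADIDO3 replicates 1 and 2. Srsf10 had −0.48 ± 0.07 (adjusted p = 0.00402, limma). Srsf6, in contrast, had 258.2 to 291.7 TPM in WT and 278.1 to 293.7 in DIDO3ΔCT+HADIDO3, with a log2 change of −0.06 ± 0.04 (adjusted p = 0.322, limma). Srsf9 had 0.53 ± 0.18 (adjusted p = 0.0785, limma).

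Among the SF3 and U2AF genes, Sf3a1 and Sf3b3 were lower and Sf3b1 was higher. Sf3a1, a subunit of SF3A, had 130.2, 125.4 and 118.4 TPM in WT and 93.2, 89.9 and 91.5 in DIDO3ΔCT+HADIDO3 at its last region (−0.55 ± 0.04, adjusted p = 0.000777, limma). Sf3b3, a SF3B subunit, had 211.4, 216.7 and 215.1 TPM in WT and 166.2, 156.9 and 154.3 in DIDO3ΔCT+HADIDO3 (−0.53 ± 0.05, adjusted p = 0.00145, limma). Neither overlapped with WT. Sf3b1, which holds the branch point adenosine, was higher instead, with 98.5, 87.1 and 96.0 TPM in WT and 137.9, 142.3 and 150.7 in DIDO3ΔCT+HADIDO3 (0.51 ± 0.06, adjusted p = 0.00198, limma). In DIDO3ΔE16, Sf3b1 had 85.5, 90.7 and 36.3 TPM, and with all 9 libraries in 1 fit, which takes in the spread of these, the increase had an adjusted p of 0.263 (limma). Sf3a3 fell by 0.33 on the log2 scale (adjusted p = 0.0121, limma), and U2af2 had −0.21 ± 0.06 (adjusted p = 0.0471, limma). Sf3b2 had −0.08 ± 0.04 (adjusted p = 0.174, limma).

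Among the hnRNP genes, Hnrnpa0 had 343.2, 310.4 and 306.6 TPM in WT and 284.8, 260.6 and 275.8 in DIDO3ΔCT+HADIDO3 (−0.33 ± 0.06, adjusted p = 0.00965, limma). Hnrnpa1 (−0.24 ± 0.04, adjusted p = 0.00734, limma) and Hnrnpa2b1 (−0.27 ± 0.06, adjusted p = 0.0163, limma) were lower by less. Hnrnpc (−0.04 ± 0.03), Hnrnpl (−0.16 ± 0.10) and Hnrnpu (−0.26 ± 0.08) did not pass the test. Ptbp1 was higher, with 4.23, 4.26 and 4.81 TPM in WT, against 2.44, 3.80 and 2.91 in DIDO3ΔE16 and 8.67, 10.4 and 10.3 in DIDO3ΔCT+HADIDO3. Its 3 groups did not overlap, with a log2 change of 1.02 ± 0.11 (adjusted p = 0.00181, limma) in DIDO3ΔCT+HADIDO3 and −0.61 ± 0.19 (adjusted p = 0.0584, limma) in DIDO3ΔE16. The differences of a few TPM stand beside the far higher overlapping Plppr3 site, so the level of Ptbp1 mRNA cannot be read from them.

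Of the most abundant sites that passed the test, that of Sfpq had the largest decrease in DIDO3ΔCT+HADIDO3, with a log2 change of −0.64 ± 0.08 (adjusted p = 0.00256, limma). Summed over all sites of a gene, a fit added after seeing the data, Hnrnph1 (−1.72 ± 0.50, adjusted p = 0.0456, limma) and Srsf1 (−0.69 ± 0.08, adjusted p = 0.00206, limma) had larger decreases than Sfpq (−0.62 ± 0.08, adjusted p = 0.00239, limma). Hnrnph1 was past both thresholds there, with DIDO3ΔCT+HADIDO3 libraries that ranged over 3.42-fold. Nono, the partner of Sfpq, had 589.1, 594.8 and 537.7 TPM in WT, against 627.0, 614.5 and 604.8 in DIDO3ΔE16 and 521.9, 510.3 and 532.2 in DIDO3ΔCT+HADIDO3. In unscaled TPM the 3 groups were apart, DIDO3ΔE16 highest. After scaling, the log2 fold change was 0.04 ± 0.04 (adjusted p = 0.536, limma) in DIDO3ΔE16, which did not pass the test. It was −0.24 ± 0.04 (adjusted p = 0.0101, limma) in DIDO3ΔCT+HADIDO3. Zranb2 had −0.31 ± 0.09 (adjusted p = 0.0497, limma).

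**Figure D2:**
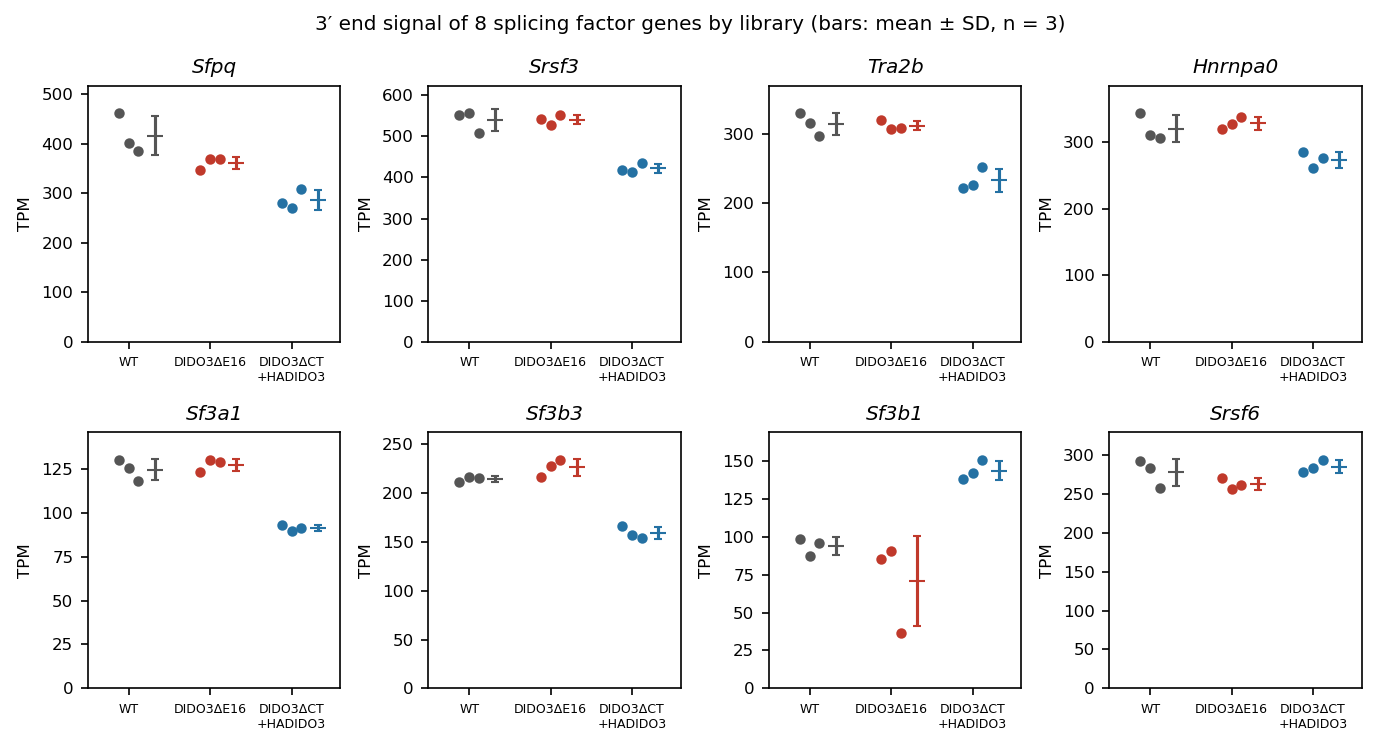
TPM (vertical axes, from 0) of the most abundant site of 8 members in each library of WT, DIDO3ΔE16 and DIDO3ΔCT+HADIDO3; points are libraries and bars the mean ± SD (n = 3). Sfpq, Srsf3, Tra2b, Hnrnpa0, Sf3a1 and Sf3b3 lie below WT in all 3 DIDO3ΔCT+HADIDO3 libraries, Sf3b1 lies above WT there with 1 DIDO3ΔE16 library at 36.3 TPM, and Srsf6 overlaps WT.

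**Figure D3:**
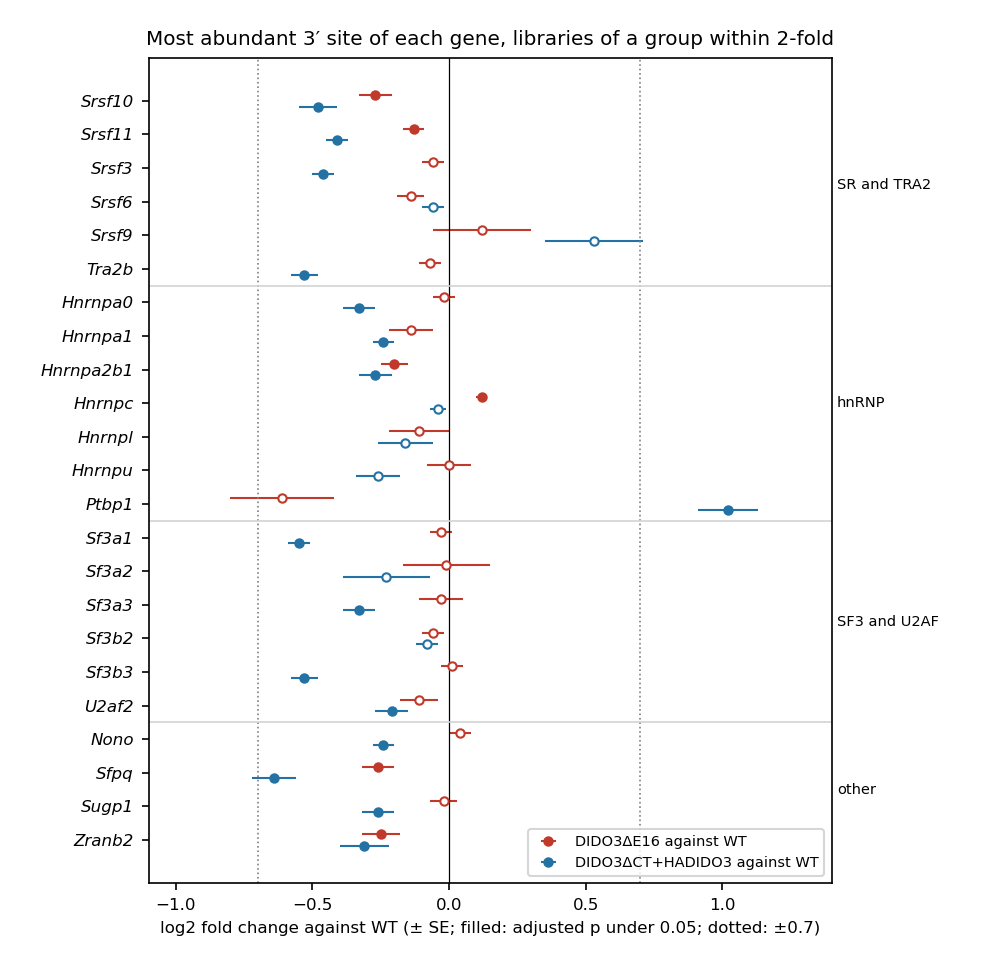
Log2 fold change against WT (horizontal axis, ± SE) of the most abundant site of the 23 members whose libraries lay within 2-fold in each group, by family; red is DIDO3ΔE16, blue DIDO3ΔCT+HADIDO3, filled points have an adjusted p under 0.05 and dotted lines mark ±0.7. Only the blue point of Ptbp1, at 1.02, is filled and beyond a dotted line, and most filled points are blue and lie between −0.64 and −0.21.

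The lower levels in DIDO3ΔCT+HADIDO3 were also seen at the best measured sites and within 1 flow cell family. When only the 10900 sites of 1 feature without shared bases were fitted, a subset chosen after seeing the data, 13 of 20 member sites were lower (27.6% of all such sites) and 0 higher (25.9%; 13 member sites had an unadjusted p under 0.05), with a median of −0.28 beside −0.01. These 20 sites belong to 14 genes, and 10 of them were lower in DIDO3ΔCT+HADIDO3 in the fit of all sites. In DIDO3ΔE16, 3 of these 20 sites were lower (22.7% of 11021) and 2 higher (21.6%), with a median of −0.01. With only WT replicate 2-3, the WT library of the flow cell family of the mutants, all 22 lower sites of the full fit kept a negative log2 fold change, and 12 member sites were lower and 6 higher at the adjusted p, beside 10.5% and 12.3% of all sites (limma; the single library is assumed to vary like the others). With the flow cell family as a covariate, 11 were lower (11.8% of all sites) and 6 higher (12.6%). That fit is no second check, since WT replicate 2-3 is the only WT library of that family. The 22 sites were chosen as lower with this library and the same mutant libraries in the fit, so their sign is little support. Over all tested member sites, chosen by name, the median was −0.26 with the covariate, beside −0.03 over all sites. Without scaling, 11 were lower (14.7% of all sites) and 2 higher (22.7%), and the median of all sites moved from −0.01 to 0.08. Within that family the values were −0.60 for Sfpq (adjusted p = 0.0254), −0.51 for Srsf3 (adjusted p = 0.0138), −0.56 for Sf3a1 (adjusted p = 0.0179) and −0.55 for Sf3b3 (adjusted p = 0.0309).

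The direct comparison of the 2 mutant lines does not use WT. Of 59 member sites tested, 20 were higher in DIDO3ΔE16 (24.4% of all 21172 sites) and 4 lower (24.8% of all sites), with a median log2 difference of 0.23 beside 0.01 over all sites. At both thresholds 3 were called (27.4% of all sites): Ptbp1 and the middle and last regions of Sugp1. Among the 20 sites of 1 feature without shared bases, 14 were higher (31.1% of 11089) and 1 lower (30.8%). DIDO3ΔE16 exceeded DIDO3ΔCT+HADIDO3 by 0.50 ± 0.04 for Sf3a1 (adjusted p = 0.000294, limma), by 0.53 ± 0.05 for Sf3b3 (adjusted p = 0.000836), by 0.44 ± 0.05 for Tra2b (adjusted p = 0.00113), by 0.38 ± 0.03 for Srsf3 (adjusted p = 0.000337) and by 0.35 ± 0.05 for Sfpq (adjusted p = 0.00278). The responses of these 5 genes thus differed between the lines. The 4 sites lower in DIDO3ΔE16 were those of Ptbp1, Srsf9 (−0.43 ± 0.10, adjusted p = 0.0184, limma), Hnrnpd (−0.41 ± 0.07, adjusted p = 0.00683, limma) and the middle region of Sugp1. Hnrnpa1, Hnrnpa2b1 and Zranb2 had differences of 0.09 ± 0.08, 0.05 ± 0.04 and 0.04 ± 0.09 between the lines.

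Of the members, 8 had separate 3′ regions (Hnrnpk, Hnrnpm, Nono, Sf3a1, Sf3a3, Sf3b3, Srsf11 and Sugp1), 18 in all. The usage of a region, the log2 ratio of its TPM to that of the rest of its gene, was tested across all genes with separate regions. In DIDO3ΔE16, 2 of the 18 regions changed in usage at the thresholds used for sites (9.83% of all 6966 regions), both of Sugp1. In DIDO3ΔCT+HADIDO3, 0 of 18 did by limma (10.6% of all 7015 regions), with 4 at an unadjusted p under 0.05, and 0 at both thresholds under each alternative run.

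Sugp1 encodes a protein with a SURP and a G-patch domain that acts with SF3B1 in branch point recognition. Its first region (mm10, chr8:70056658-70060317) ends in a retained-intron transcript and holds 225 coding bases. It had 26.2, 24.8 and 26.5 TPM in WT, against 25.7, 27.3 and 27 in DIDO3ΔE16 and 23.5, 23.4 and 22.4 in DIDO3ΔCT+HADIDO3. The middle region (chr8:70065306-70068911) is also the end of a retained-intron transcript and holds no coding base. It had 17.3, 19 and 18.8 TPM in WT, against 8.19, 9.74 and 7.95 in DIDO3ΔE16 and 21.9, 19.7 and 19.5 in DIDO3ΔCT+HADIDO3. The last region (chr8:70071833-70073953) holds no coding base and had 14.3, 14.4 and 15.4 TPM in WT, against 20.7, 18 and 23.9 in DIDO3ΔE16 and 9.89, 11.1 and 10.9 in DIDO3ΔCT+HADIDO3. The middle region was thus lowest in DIDO3ΔE16 and the last region highest, without overlap with either other group. The listed 3′UTR of the last region has 121 bases, so nearly all of that site is added downstream sequence. No GENCODE transcript end of the gene lies within 2 bases of its listed end. Its signal therefore does not measure use of that end alone.

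The middle region of Sugp1 changed by −1.15 ± 0.10 (adjusted p = 0.0014, limma) in DIDO3ΔE16 and by 0.04 ± 0.09 (adjusted p = 0.721) in DIDO3ΔCT+HADIDO3, and the lines differed by −1.21 ± 0.11 (adjusted p = 0.000584). The last region changed by 0.43 ± 0.12 (adjusted p = 0.0421, limma) in DIDO3ΔE16 and by −0.57 ± 0.07 (adjusted p = 0.00323) in DIDO3ΔCT+HADIDO3, and the lines differed by 0.98 ± 0.12 (adjusted p = 0.00161). As a share of the 3 regions, the middle region made up 31.2% ± 1.38 in WT, against 15.4% ± 2.11 in DIDO3ΔE16 and 37.6% ± 1.74 in DIDO3ΔCT+HADIDO3 (SD, n = 3), and the last region 25% ± 0.416, 37.0% ± 3.99 and 19.7% ± 1.53. The first region holds coding bases, so an mRNA can be counted there as well, and the shares are not shares of transcripts. The log2 usage of the middle region fell by 1.31 (adjusted p = 0.00616, limma) in DIDO3ΔE16 and that of the last region rose by 0.82 (adjusted p = 0.0263). In DIDO3ΔCT+HADIDO3 the values were 0.41 (adjusted p = 0.0556, limma) and −0.44 (adjusted p = 0.05), in the opposite directions. The lines differed by −1.73 (adjusted p = 0.00107, limma) and 1.26 (adjusted p = 0.00411), at regions of which 22.7% of 7062 were called in that comparison. Without WT replicate 1, the usage change of the last region was 0.80 (adjusted p = 0.0832), without WT replicate 2-3 0.81 (adjusted p = 0.0811), without WT replicate 4 0.83 (adjusted p = 0.0785), without DIDO3ΔE16 replicate 1 0.79 (adjusted p = 0.081) and without DIDO3ΔE16 replicate 3 0.71 (adjusted p = 0.0675), whereas that of the middle region stayed below an adjusted p of 0.05 without any 1 library. All 3 regions are listed as 1 feature each, without shared bases.

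**Figure D4:**
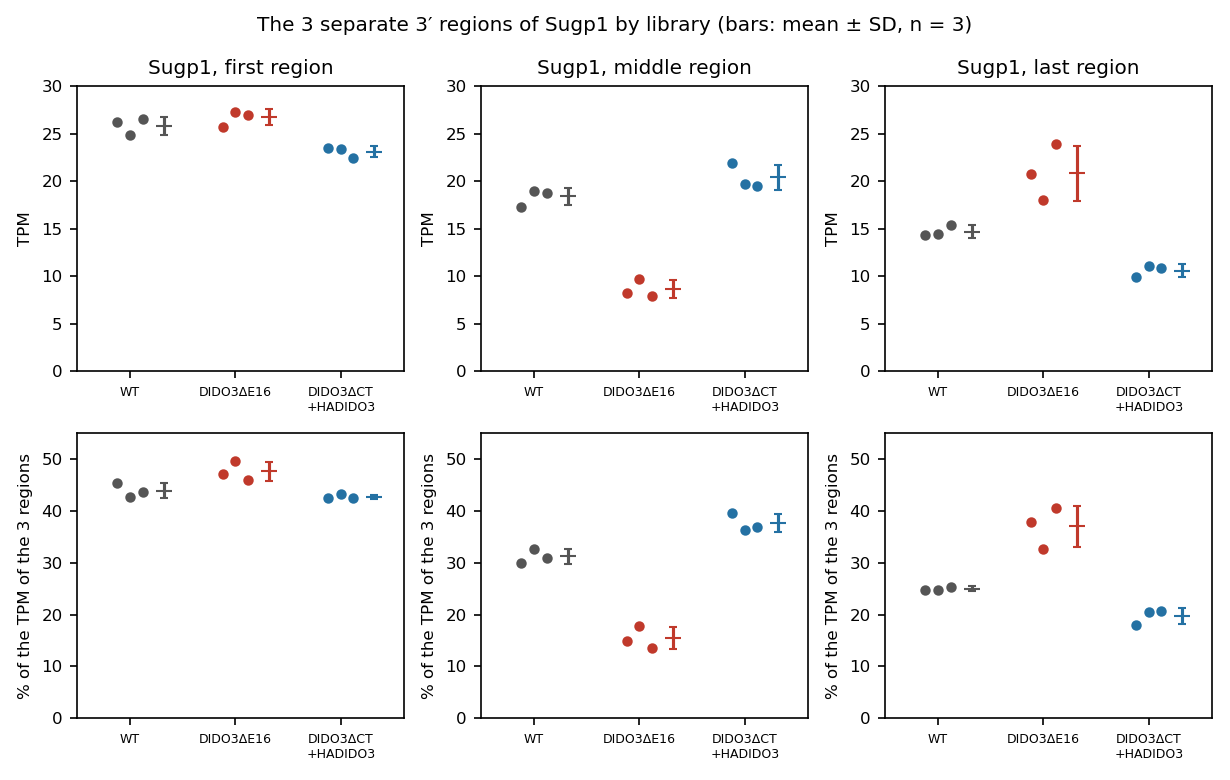
TPM (upper row) and share of the summed TPM in percent (lower row) of the first, middle and last 3′ regions of Sugp1 in each library of WT, DIDO3ΔE16 and DIDO3ΔCT+HADIDO3; points are libraries, bars the mean ± SD (n = 3). The middle region holds 13.5% to 17.7% in DIDO3ΔE16 against 29.9% to 32.7% in WT, the last region 32.7% to 40.5% against 24.7% to 25.4%.

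In the other 7 genes no usage change was called. The upstream region of Nono held 18% ± 0.184 of its TPM in WT, against 17.8% ± 0.439 in DIDO3ΔE16 and 18.8% ± 0.7 in DIDO3ΔCT+HADIDO3. That of Sf3b3 held 44.2% ± 0.646, 45.3% ± 1.84 and 45.0% ± 0.266, and that of Srsf11 20.0% ± 0.462, 19.1% ± 0.534 and 18.9% ± 0.364. In Sf3b3 and Srsf11, the upstream and last regions were thus lower by similar amounts in DIDO3ΔCT+HADIDO3 (−0.49 ± 0.06 and −0.53 ± 0.05 for Sf3b3). These upstream features hold coding bases of their genes, 378 in Nono, 300 in Sf3b3, and 287 and 177 in the 2 of Srsf11. An mRNA with these bases can be counted at both regions, so the shares do not measure retained introns alone. Whether the separate ends behave alike cannot be read from them. Sf3a1 had 53.8% ± 0.838 at its last region in WT and 48.0% ± 1.21 in DIDO3ΔCT+HADIDO3, with a log2 usage change of −0.33 ± 0.08 (adjusted p = 0.0598, limma). The same limit applies to it, as its upstream features hold 122 and 151 coding bases. Hnrnpk and Hnrnpm could not be judged: the last region of Hnrnpk held 41.1% in DIDO3ΔE16 replicate 3 and 87.5% to 89.9% in all other libraries, and that of Hnrnpm overlaps Pram1 on the opposite strand.

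Other genes of the splicing machinery were taken as lists, each gene by its most abundant site. The shares of all sites that were higher and lower are those given above, 15.9% and 17.4% in DIDO3ΔE16 and 18.5% and 20.0% in DIDO3ΔCT+HADIDO3. Of 29 tested core spliceosome genes, 3 rose and 3 fell in DIDO3ΔE16, and 3 rose and 11 fell in DIDO3ΔCT+HADIDO3 at the adjusted p, with medians of 0.03 and −0.15; this was 10.3% either way in DIDO3ΔE16, under the share of all sites, and 10.3% higher and 37.9% lower in DIDO3ΔCT+HADIDO3. The only called one there was Xab2, a spliceosome component, with 89.6 ± 6.36 TPM in WT and 58.8 ± 0.598 in DIDO3ΔCT+HADIDO3 (−0.71 ± 0.07, adjusted p = 0.00146, limma). Snrpf, an Sm protein, was called in DIDO3ΔE16 at 0.563 ± 0.322 TPM in WT and 1.85 ± 0.436 in DIDO3ΔE16, and is named because it was the only one. Of 39 tested further SR, hnRNP and splicing regulator genes, 1 rose and 15 fell in DIDO3ΔE16 (2.56% and 38.5%, median −0.15), and 3 rose and 17 fell in DIDO3ΔCT+HADIDO3 (7.69% and 43.6%, median −0.23). Esrp1, an epithelial splicing regulator, had 51.5 ± 1.16 TPM in WT, against 16.9 ± 0.45 in DIDO3ΔE16 and 14.3 ± 0.735 in DIDO3ΔCT+HADIDO3, with log2 fold changes of −1.66 ± 0.04 (adjusted p = 5.74e-05, limma) and −1.94 ± 0.05 (adjusted p = 5.3e-05). Tia1, which promotes the use of weak 5′ splice sites, had 46.1 ± 2.17 TPM in WT, 25.7 ± 2.24 with the exon deleted and 65.5 ± 3.23 in DIDO3ΔCT+HADIDO3 (DIDO3ΔE16 −0.91 ± 0.07 against WT and −1.33 ± 0.07 against DIDO3ΔCT+HADIDO3; adjusted p = 0.000984 and 0.000112, limma). Ptbp2, the neuronal relative of Ptbp1, had 39.3 ± 5.35 TPM in WT and 23.8 ± 1.62 in DIDO3ΔCT+HADIDO3 (−0.82 ± 0.10, adjusted p = 0.00326, limma). Of 11 tested genes for SR protein kinases, transport and nonsense-mediated decay, 0 rose and 2 fell in DIDO3ΔE16, and 0 rose and 5 fell in DIDO3ΔCT+HADIDO3 (limma; 3 and 5 had an unadjusted p under 0.05), with medians of −0.01 and −0.26; the 2 of 11 lower in DIDO3ΔE16 are 18.2%, near the share of all sites, and the 5 of 11 in DIDO3ΔCT+HADIDO3 45.5%.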

How the data were processed

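ESC RNA-seq of 9 libraries was used (10 labelled samples, of which WT replicates 2 and 3 are 1 library). The authors used BWA-MEM (0.7.15) for alignment to mm10, Picard to drop duplicates, and StringTie (1.3.3, reference features only) for quantification of UCSC 3′UTRs with 2000 bases added; TPM per feature was used as deposited by the authors, without scaling between libraries. Coverage values deposited beside them (another score of the files) served for depth only. Gene names came from GENCODE M21 (GRCm38, the mm10 assembly) by coordinates; 67.3% of features matched a transcript end within 2 bases.

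Features with identical coordinates were summed. To scale libraries, log2 ratios to their mean were averaged after dropping 30% from either tail; limma (3.58.1, R 4.3.3, with trend and robust) was then run on log2(TPM + 0.1), 2-sided, Benjamini-Hochberg adjusted over all sites. Read counts were not used here, so edgeR, which the authors used, was replaced by limma. On simulated data for DIDO3ΔE16 against WT (21063 sites) 48.6% of changes of log2 1 and 62.8% of log2 2 were recovered.

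Every member is named by its most abundant site, with other sites when called or changed in usage; values per library are given for called sites, the most abundant site of each family and Sfpq, and for further members chosen after their values were seen; the other lists give up to 2 increases and 2 decreases with at least 10 TPM. Members, lists and tests were chosen with earlier results of these data known. Alternatives concerned pseudocount, filters, scaling, covariates, thresholds, listing of features, overlaps, single libraries and a replicate block. Sites of 1 feature without shared bases, gene sums and the comparison with WT replicate 2-3 alone were chosen after seeing the data. Python (3.11.15), numpy and pandas made the summaries.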

Additional observations from a re-analysis of the deposited data

Results flagged for a closer look

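Tested directly against each other, the mutant lines set 3 member sites apart at both thresholds, so that their change against WT differed between the lines. The Ptbp1 site differed by −1.65 ± 0.18 on the log2 scale (adjusted p = 0.00115, limma), with 2.44, 3.80 and 2.91 TPM in DIDO3ΔE16 and 8.67, 10.4 and 10.3 in DIDO3ΔCT+HADIDO3. It shares 1578 bases with Plppr3 on the opposite strand, whose part in this was not tested. The middle region of Sugp1 differed by −1.21 ± 0.11 (adjusted p = 0.000584, limma) and its last region by 0.98 ± 0.12 (adjusted p = 0.00161, limma), in opposite directions within 1 gene.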

How the results depend on the processing

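Single-site values were followed only for sites that passed the adjusted p in the full fit. There were 9 in DIDO3ΔE16 against WT, 24 in DIDO3ΔCT+HADIDO3 against WT and 24 in the direct comparison. None of these changed direction under any alternative run, and of their 180, 478 and 411 values 88, 128 and 39 lost the threshold. Other sites could change direction. For 1 Srsf1 site in DIDO3ΔE16 the log2 fold change was 0.29 in the full fit and −0.99 with the flow cell covariate. In DIDO3ΔE16, the number of called sites, 2, became 1 at an adjusted p of 0.01, without trend, with pseudocounts of 0.01 or 1 and with sites above 0 in any library, 0 with gene sums, and 1 to 2 without single libraries. The number of lower sites, 6, became 1 at an adjusted p of 0.01, without trend and without scaling, 2 with the flow cell covariate and under quantile normalization, 3 among sites of 1 feature and 1 to 8 without single libraries. The number of regions with changed usage, 2, became 1 at an adjusted p of 0.01 and with the flow cell covariate, and 1 to 3 without single libraries. In DIDO3ΔCT+HADIDO3, the number of called sites, 2, became 1 at an adjusted p of 0.01, without scaling, and without sites sharing bases on the same or the opposite strand. It became 4 at a 1.5-fold threshold and with features listed on their own, 5 with the flow cell covariate or WT replicate 2-3 alone, 0 among sites of 1 feature and 1 to 3 without single libraries. The number of lower sites, 22, became 12 at an adjusted p of 0.01 and with WT replicate 2-3 alone, 11 with the flow cell covariate and without scaling, 13 among sites of 1 feature and 16 to 18 without single libraries. In the direct comparison, the number of called sites, 3, became 5 with features listed on their own and 3 to 4 without single libraries, and that of lower sites, 4, became 2 without sites sharing bases with the opposite strand, 1 among sites of 1 feature and 3 to 5 without single libraries. These are counts over all member sites, not only those of the full fit; without single libraries 1 to 6 of the same 6 sites and 14 to 18 of the same 22 stayed lower. Fewer sites or samples enter some of these fits; otherwise the cause was not tested. Replicate numbers give no sign of pairing (correlations of same-numbered deviations between the mutant lines 0.026, −0.008 and −0.015). With a replicate block, whichever number WT replicate 2-3 was given, 0 sites were called, 0 were lower and 0 regions changed in usage in either line against WT, and 3 sites were called in the direct comparison. WT replicate 4 has no mutant library of its number, and a mutant replicate has no WT library of its number. The block fits against WT thus leave little to estimate the spread, and the lack of calls there decides nothing. Coverage of 1.463 to 2.615 Gb per library limits sites of a few TPM most.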
